A study of Mus musculus with 4 samples.

Results

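The 475 regions described here are stretches of chromatin beside gene start sites that carried an ATAC-seq peak in both libraries of IRF8KO microglia and no deposited peak in either WT library. They were selected on the measured peak heights. All distinct autosomal peaks of the 4 libraries with a height of at least 0.25 pileup per 1000000 tags were merged into 93336 regions, and 23826 of these lay within 1 kb of the transcription start site (TSS) of a protein-coding or long non-coding RNA (lncRNA) gene. A member had to be overlapped, by at least 1 bp, by a peak of that height in both IRF8KO libraries and by no row at all in the 2 WT lists, which 475 of the 23826 promoter regions were (1.99%). The same criteria took 3.9% of the 69510 regions away from promoters. With the genotypes exchanged they took 689 promoter regions (2.89%), called WT-only below, and 14995 promoter regions had a peak of that height in all 4 libraries. These shares follow from the selection and carry no test. With fewer libraries required the criteria took more regions: 816 without WT replicate 1, 652 without WT replicate 2, 1320 without IRF8KO replicate 1 and 909 without IRF8KO replicate 2.

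Microglia are the resident macrophages of the brain. The labels describe microglia sorted by flow cytometry from the brains of C57BL/6 mice, 3 months old and untreated, with genotype WT in 2 libraries and IRF8KO in 2 libraries, numbered replicate 1 and 2 in each. All 4 share strain, age and tissue, the allele behind IRF8KO is not described in the labels, and a list of peaks cannot check the loss of the gene. The labels do not say whether replicates came from separate mice, so the spread between them may be technical. The WT libraries held 46948938 and 48896408 tags, the IRF8KO libraries 78793572 and 66224648, and the tag size was 50 bp in WT and 49 bp in IRF8KO. Depth and tag size therefore cannot be told apart from genotype.

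IRF8 belongs to the interferon regulatory factors, a family of DNA-binding proteins, and is needed for the normal development of several myeloid lineages and is expressed in mature microglia. On DNA it commonly acts with PU.1, an ETS family factor, at composite ETS-IRF elements, and with other IRF proteins at interferon-stimulated response elements (ISREs). Macrophage chromatin is also shaped by AP-1 (dimers of Fos, Jun and related proteins), by CEBP proteins and by RUNX proteins. In ATAC-seq the Tn5 transposase inserts adapters into accessible DNA, so a pileup of cut sites marks an open stretch, and promoters of active genes are usually open at the start site itself.

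The sequences below show what such elements look like in members at genes of known role and in members that stood high. The letters are those of the GRCm38.p6 reference assembly (NCBI RefSeq), read 5′ to 3′ along the strand of the gene, and each stretch lies within 100 bp of the summit of its member and holds no annotated exon base. Capitals mark the motif for which the stretch is shown. The first set holds the CEBP motif TTGCNNAA (either strand) in the promoters of Ifi47, an interferon-inducible GTPase, Vnn3, a vanin family pantetheinase, and Clec4e, the C-type lectin receptor Mincle. The stretches are chr11:49076422-49076541 (plus strand), chr10:23851342-23851461 (plus strand) and chr6:123289874-123289993 (minus strand). The sites begin or centre close to the start, at -157, -21 and -64 bp from the TSS for the site first met on the chromosome.
Ifi47: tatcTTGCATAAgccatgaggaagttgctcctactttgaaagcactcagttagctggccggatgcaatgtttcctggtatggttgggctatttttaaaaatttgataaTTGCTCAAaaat
Vnn3: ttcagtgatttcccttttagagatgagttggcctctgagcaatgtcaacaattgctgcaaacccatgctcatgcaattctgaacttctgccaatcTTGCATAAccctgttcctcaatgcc
Clec4e: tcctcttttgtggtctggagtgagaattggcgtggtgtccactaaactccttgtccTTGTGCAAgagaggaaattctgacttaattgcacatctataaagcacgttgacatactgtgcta

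The second set holds the AP-1 motif TGACTCA, which reads as TGAGTCA on the other strand, in the highest member, at the lncRNA AU019990, and in members at Ahnak, which encodes a very large scaffold protein, and Ctla2a, an inhibitor of cathepsins. Their positions are chr2:132599321-132599440 (plus strand), chr19:8997673-8997792 (plus strand) and chr13:60936639-60936758 (minus strand). At Ahnak the site centred 8 bp from the summit of the peak.
AU019990: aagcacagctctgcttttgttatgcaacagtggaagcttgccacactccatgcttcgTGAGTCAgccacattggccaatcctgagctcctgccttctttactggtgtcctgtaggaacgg
Ahnak: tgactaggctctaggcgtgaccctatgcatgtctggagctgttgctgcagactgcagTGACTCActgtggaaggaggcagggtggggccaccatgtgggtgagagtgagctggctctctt
Ctla2a: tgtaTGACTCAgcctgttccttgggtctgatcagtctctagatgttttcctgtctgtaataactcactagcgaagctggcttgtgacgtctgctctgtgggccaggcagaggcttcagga

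The third set holds ISREs, shown because they are sites for IRF proteins in chromatin called open only in IRF8KO. They come from Oas2, an antiviral oligoadenylate synthetase, Ifi206, a member of the interferon-inducible HIN-200 family, and Sirpb1b, a signal-regulatory protein of myeloid cells. The stretches are chr5:120749887-120750006 (minus strand), chr1:173491319-173491393 (minus strand) and chr3:15575102-15575221 (minus strand).
Oas2: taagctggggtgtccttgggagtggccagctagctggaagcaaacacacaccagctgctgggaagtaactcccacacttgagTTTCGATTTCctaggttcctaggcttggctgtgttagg
Ifi206: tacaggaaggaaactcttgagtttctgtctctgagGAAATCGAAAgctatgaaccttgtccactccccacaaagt
Sirpb1b: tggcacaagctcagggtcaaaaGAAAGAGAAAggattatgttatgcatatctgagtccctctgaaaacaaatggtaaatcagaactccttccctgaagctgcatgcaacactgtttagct

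The last stretch holds a RUNX motif (TGTGGTT or, on the other strand, AACCACA) just upstream of Hcar2, a G protein-coupled receptor for niacin and the ketone body beta-hydroxybutyrate. Its position is chr5:123865517-123865627 (minus strand), and the site centred 22 bp upstream of the start.
Hcar2: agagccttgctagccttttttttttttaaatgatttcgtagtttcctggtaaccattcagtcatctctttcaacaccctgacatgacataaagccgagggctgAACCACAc

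The members were small peaks. Height is the authors' deposited pileup at the peak summit per 1000000 tags of the library. In IRF8KO replicate 1 it ran from 0.254 to 3.11 with a median of 0.368, and in replicate 2 from 0.257 to 4.92 with a median of 0.498. These medians correspond to 29 and 33 overlapping cut-site extensions. The lower of the 2 heights was at least 0.5 for 104 members, at least 1 for 13 members and under 0.3 for 146 members. Among the 14995 promoters open in all 4 libraries, 90.0% had a lower IRF8KO height above the median of the members (0.355) and 13.4% had one above the highest member. WT-only promoters were small as well, with a median of 0.409 for the lower of their 2 WT heights. Fold enrichment over the local background, the authors' ratio, had a median of 3.10 in replicate 1 and 3.11 in replicate 2. It was 5 or more in both libraries for 110 members and under 3 in both for 169.

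Both IRF8KO libraries placed the members alike but at different heights. The summits of the 2 libraries lay a median of 13 bp apart, and within 50 bp for 394 members. Replicate 2 was the higher for 408 of the 475, with a median ratio of 1.32 to replicate 1. The same ratio over promoters open in all 4 libraries was 1.43, so the members share an offset between the libraries that other promoters show too. Relative to tags, promoters open in all 4 libraries were lower in IRF8KO than in WT, with a median ratio of 0.811.

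**Figure D1:**
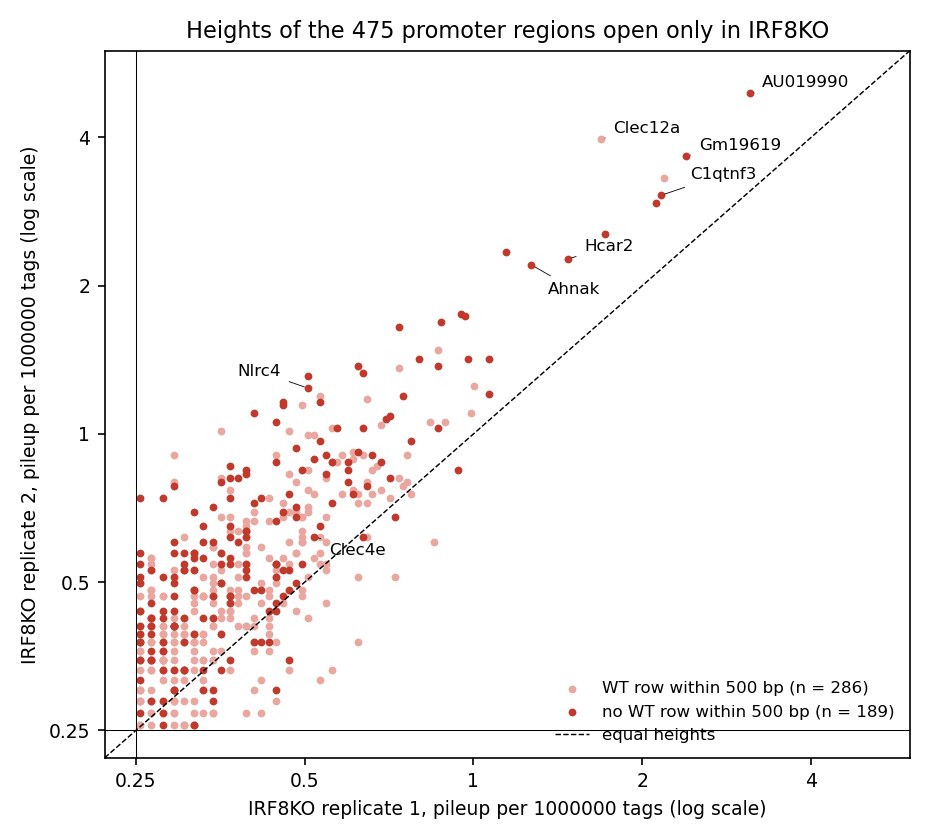
Height of each member in IRF8KO replicate 1 (x axis) and replicate 2 (y axis), both in pileup per 1000000 tags on log scales, with the dashed line at equal heights and thin lines at the threshold of 0.25. Most points lie above the dashed line (408 of 475), and members with no WT row within 500 bp (dark) occur at all heights.

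Absence in WT means that the caller deposited no row there, not that no tag was found. The lowest deposited WT heights were 0.128 in replicate 1 and 0.123 in replicate 2. The local background of each member was read in the IRF8KO libraries and scaled by tags, since WT gives none at these regions. On it, a WT peak would have needed a median height of 0.256 in WT replicate 1 and 0.245 in replicate 2 to pass the authors' p cutoff of 0.01. At its lower IRF8KO height, a member would have passed in both WT libraries in 410 cases and would not in 65. A higher background in WT than in IRF8KO would lower the first count, and the WT background was not measured. No fold change to WT is given, since WT has no value at these regions. Of the 16287 promoter regions at the threshold in both IRF8KO libraries, 15316 had a row in both WT libraries and 496 in 1 of them, which left the 475 members.

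Many members stood beside chromatin that was open in WT. A WT row lay within 500 bp of 286 members (60.2%), and for 265 of these a WT row there reached the height threshold. The tallest such WT row had a median height of 2.28, several times the height of the members beside it. A region open in all 4 libraries lay within 500 bp of 242 members (50.9%), a share taken for members alone. Beside the region, a WT row lay within 500 bp of 67.3% of WT-only promoters and 53.8% of promoters open in all 4 libraries. The 60.2% lay between these shares, so a WT row nearby was not particular to members. The other 189 of the 475 members had no WT row within 500 bp, and 173 of these would have passed in both WT libraries at their lower height. Conversely, 297 of the 689 WT-only promoters had no IRF8KO row within 500 bp. The 286 members beside WT rows were narrower (median 166 bp, against 273 bp for the 189) and slightly lower (median lower height 0.343, against 0.368). Whether a member beside a tall WT peak is a separate element or an edge of that peak was not tested.

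The highest member of all lay in an intron of the lncRNA AU019990 on chromosome 2 (chr2:132599099-132599494), with its summit 1151 bp downstream of the nearest TSS. It reached 3.11 in IRF8KO replicate 1 and 4.92 in replicate 2, with a fold enrichment of 14.5 and 15.6, and held both an AP-1 and a CEBP motif. The next, at the lncRNA Gm19619 (chr5:91282863-91283383), reached 2.40 and 3.67, and no WT row lay within 11719 bp of it. On the background read in the IRF8KO libraries, a WT peak at AU019990 would have needed 0.447 in WT replicate 1 and 0.429 in replicate 2. At Gm19619 it would have needed 0.256 and 0.245.

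Among protein-coding genes, C1qtnf3, which encodes a secreted protein of the C1q and TNF related family, led with 2.16 in replicate 1 and 3.05 in replicate 2 (chr15:10953344-10953867, intronic). A second, smaller member at C1qtnf3 reached 0.305 and 0.332. Kdelc2, a glycosyltransferase of the endoplasmic reticulum, stood at 2.12 and 2.95 and was the widest member at 712 bp. Htra3, a secreted serine protease, stood at 1.71 and 2.55. None of these 3 genes had a WT row within 500 bp of the member, but Kdelc2 and Htra3 had another promoter region open in all 4 libraries.

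Clec12a, an inhibitory C-type lectin receptor of myeloid cells, showed the widest gap between the libraries in this group, with 1.69 in replicate 1 and 3.97 in replicate 2. Its member (chr6:129349867-129350392) had its summit in a UTR, 128 bp downstream of an internal start site. WT replicate 1 had a row of 0.341 just beside it, 98 bp away, and WT replicate 2 had none within 500 bp. Hcar2 reached 1.47 and 2.27 (chr5:123865393-123865790), with the summit 28 bp upstream of the start. Ahnak reached 1.27 and 2.20 (chr19:8997621-8998018), with the summit 157 bp upstream of an internal start site. At Hcar2 no WT row lay within 1 kb of any start of the gene.

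The remaining members among the 20 highest were between 0.863 and 1.15 in the lower library, apart from the lncRNA AC162612.1 at 2.18 and 3.31, which had a WT row of 0.143 nearby. They included Colec12, a scavenger receptor of the collectin family, at 0.977 and 1.42, and Sash1, a scaffold protein of signalling, which had 2 members at 0.964 and 1.74 and at 0.952 and 1.75. Plekhg2 stood at 1.003 and 1.25 beside WT rows of 4.13 and 3.03, with a fold enrichment of only 2.50 and 2.72. The member at the gene Gm11175 lay 1092 bp inside Jund, an AP-1 subunit, beside WT rows of 1.38 and 1.39, and the one at the lncRNA Gm42809 lay 632 bp inside Il6ra, the interleukin-6 receptor, beside WT rows of 4.004 and 3.46. A peak does not tell which of 2 neighbouring genes it belongs to, and a gene named here is only the one whose start is nearest.

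**Figure D2:**
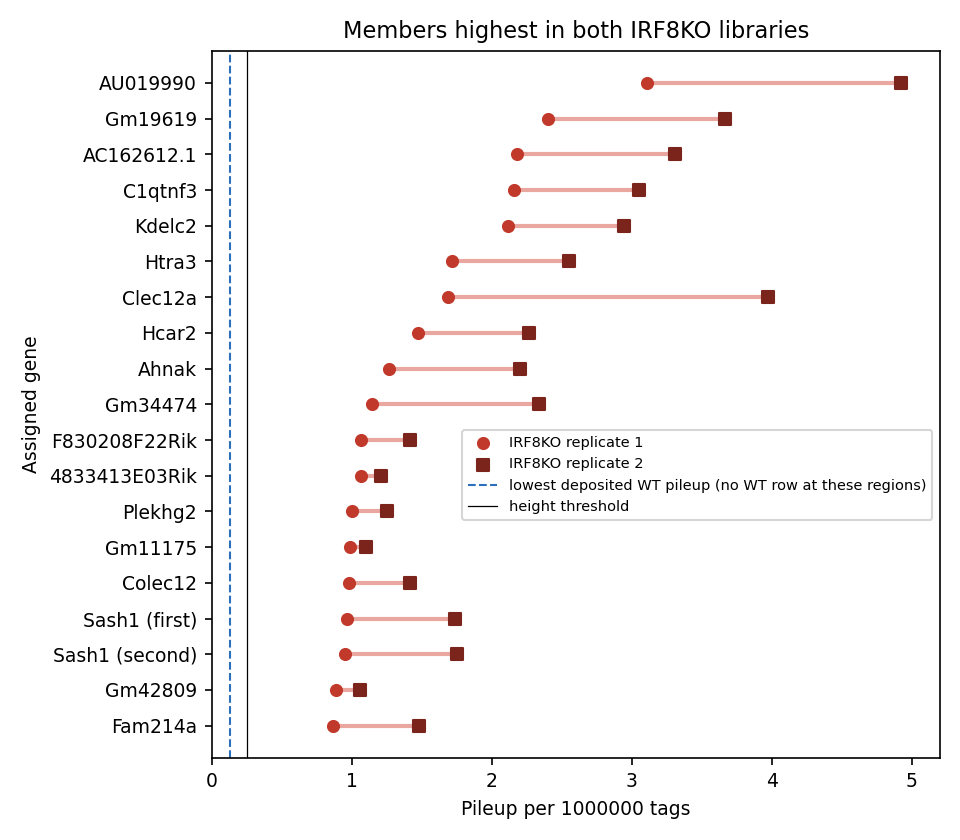
Height in pileup per 1000000 tags of 19 of the 20 members that were highest in the lower of the 2 IRF8KO libraries, with circles for replicate 1 and squares for replicate 2. By the selection, every point lies right of the threshold of 0.25 (solid line) and so of the lowest deposited WT height (dashed line). Replicate 2 is the higher in each of the 19, and the 2 members at Sash1 are numbered in order of height.

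For 71 members the assigned gene had no WT row within 1 kb of any of its starts, which makes 37 protein-coding and 29 lncRNA genes. In WT-only promoters and promoters open in all 4 libraries such genes are missing by construction or nearly so, so these 71 are a description. In 34 of them the summit lay within 200 bp of the TSS. On the background read in the IRF8KO libraries, 68 of the 71 would have passed in both WT libraries at their lower height. Their motif shares were 15.5% for AP-1 (11 members) and 18.3% for CEBP (13 members).

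Receptors and sensors of innate immunity were among those 37 genes. Clec4e, a receptor for glycolipids of mycobacteria and fungi, reached 0.520 in replicate 1 and 0.619 in replicate 2. Nlrc4, the core of an inflammasome that senses bacterial flagellin, reached 0.508 and 1.24 and held a CEBP motif. Sirpb1b reached 0.622 and 0.921. Colec12 had 3 members, more than any other gene, with the lower 2 at 0.393 and 0.634 and at 0.330 and 0.302. In each of these genes both IRF8KO libraries were above the threshold and no WT row stood within 500 bp of the member.

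Further receptors followed at lower heights. Cd200r4, a receptor of the CD200 receptor family, reached 0.457 and 1.16. Klrb1c, a C-type lectin known as NK1.1 on natural killer cells, reached 0.470 and 0.529. Il18rap, a subunit of the interleukin-18 receptor, reached 0.254 and 0.513, and Cd28, the costimulatory receptor of T cells, reached 0.254 and 0.498. These last 2 stood only just above the threshold in replicate 1, and both held a RUNX motif. Sirpb1b, Cd200r4, Klrb1c, Ctla2a, Ifi47 and Ifi206 belong to families of close copies, and how the authors' alignment treated reads shared between copies is not given in the sources used here.

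Secreted and enzyme genes without a WT row included Cxcl14, a chemokine, at 0.546 and 0.831 over a region of 690 bp that spans its start. Vnn3 had a member 21 bp upstream of the start at 0.736 and 1.65 and another at 0.254 and 0.317. Serpinb7, a serine protease inhibitor, reached 0.444 and 0.664, and Anxa1, an anti-inflammatory annexin, reached 0.393 and 0.619. Apoc4, an apolipoprotein, was near the threshold at 0.292 and 0.302. Ctla2a reached 0.254 and 0.574. Replicate 2 was the higher at each of these members.

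Interferon-inducible genes occurred among the members, and at 4 of them the promoter had no WT row at all. Ifi47 reached 0.863 in replicate 1 and 1.03 in replicate 2, Ifi206 reached 0.393 and 0.634, Oas2 reached 0.368 and 0.861, and Ifitm2, an antiviral membrane protein, reached 0.330 and 0.649. None of these 4 had a WT row within 1 kb of a start. Gbp3, a guanylate-binding GTPase, reached 0.597 and 0.8003 at a site 443 bp downstream of an internal start. Another promoter region of that gene was open in all 4 libraries. Siglec1, a sialic acid receptor induced by interferon, reached 0.838 and 1.06 beside WT rows of 0.320 and 0.368. Of the 32 genes in a list of interferon-stimulated genes 2 had a member (Gbp3 and Oas2, 6.25%), and 24 had a promoter region open in all 4 libraries.

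Counts over such lists are read against the share of all genes. A member was assigned to 460 of the 30148 autosomal genes (1.53%), and a WT-only promoter to 646 (2.14%). The list of pattern and phagocytic receptors had members at 6 of 39 genes (15.4%), namely Clec12a, Clec4e, Fcgr3, Itgal, Nlrc4 and Tlr3, and a WT-only promoter at 1 (Tlr2). The list of chemokines and cytokines had members at 5 of 46 genes (10.9%), namely Cxcl14, Cxcl3, Igf1, Il10 and Il1a, and a WT-only promoter at 1 (Pdgfa). Because 26 of the 39 and 29 of the 46 had a promoter open in all 4 libraries, these lists hold many genes that microglia keep open, and nothing particular to the lists is drawn from the counts.

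The members of those lists differed in how clear of WT rows they stood. Fcgr3, an activating receptor for IgG, had 2 members at 0.457 and 0.529 and at 0.330 and 0.378, and the second lay beside WT rows of 2.62 and 2.21. Tlr3, the receptor for double-stranded RNA, stood at 0.457 and 0.453 beside WT rows of 1.47 and 1.45. Itgal, the integrin alpha chain of LFA-1, stood at 0.355 and 0.393, 931 bp inside the gene. Il1a, a pro-inflammatory cytokine, stood at 0.355 and 0.544, and Cxcl3, a chemokine for neutrophils, at 0.330 and 0.347 with WT rows of 0.213 and 0.184 nearby. Il10, the anti-inflammatory cytokine, stood at 0.267 and 0.559 with a row of 0.170 nearby in WT replicate 1 alone. Igf1, a growth factor, stood at 0.432 and 0.468 beside WT rows of 0.298 and 0.368. For Cxcl3, Il10 and Igf1 both the member and the WT rows beside it were thus small. The nearest WT row lay 101, 105 and 223 bp outside the member, so these heights are not of the same position.

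The other lists had between 0 and 3 members each. Of the 44 macrophage transcription factors 3 had one (Id3, Mef2c and Nfkb1, 6.82%), of the 9 IRF genes 1 (Irf5, 11.1%), of the 16 AP-1 family genes 1 (Mafg, 6.25%) and of the 6 CEBP genes none. Of the 34 lipid metabolism genes 2 had one (Apoc1 and Apoc4, 5.88%), of the 29 lysosome genes 2 (Ctsc and Scarb2, 6.90%), of the 30 adhesion and migration genes 1 (C5ar1, 3.33%), of the 32 genes of disease-associated microglia 2 (Igf1 and Lilrb4a, 6.25%) and of the 6 border macrophage markers 1 (Ms4a7, 16.7%). With lists this short, 1 gene moves a share by several percentage points. Id3, an inhibitor of helix-loop-helix factors, stood at 0.355 and 0.423 beside WT rows of 3.64 and 2.70, and C5ar1, the receptor of complement C5a, at 0.317 and 0.378 beside WT rows of 0.809 and 0.695. None of the 11 microglia markers had a member, whereas 2 of them, Aif1 and Siglech, had a WT-only promoter. Mef2c had both a member, at 0.736 and 1.36 beside WT rows of 1.15 and 0.777, and a WT-only promoter. Irf5, an IRF protein of inflammatory macrophages, stood at 0.774 and 0.755 beside WT rows of 1.04 and 0.941.

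Some transcription regulators outside the lists, named after their values were seen, also had members. Rara, the retinoic acid receptor alpha, had 2 members, at 0.635 and 1.03 and at 0.279 and 0.332, the second with a row of 0.205 nearby in WT replicate 2. Per2, a component of the circadian clock, stood at 0.711 and 1.09, and Cry2, another clock protein, at 0.546 and 0.680 beside WT rows of 7.31 and 6.09. Tal1, a regulator of blood cell development, stood at 0.495 and 0.634 beside WT rows of 2.07 in both libraries. Etv6, an ETS family repressor, stood at 0.368 and 0.468, and Foxp1, a forkhead repressor, at 0.381 and 0.604. Each of these 6 genes had another promoter region open in all 4 libraries. Lhx8, a LIM homeobox gene of forebrain development, was different in that it had no WT row at any start, but it stood at only 0.254 and 0.347.

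For 361 of the 475 (76.0%, 95% Wilson interval 72.0 to 79.6) the assigned gene had another promoter region open in all 4 libraries, so that the member was an additional open stretch. The share was 72.1% for WT-only promoters and 48.5% for promoters open in all 4. The last share is not a like measure. A promoter open in all 4 libraries does not count itself, so its gene needs a further such region. Among the 189 members with no WT row within 500 bp it was 51.3%, and among the 286 others 92.3%. Intervals here and below cover counting error only. Of the members, 381 were assigned to protein-coding genes and 94 to lncRNA genes, and 14 genes had more than 1.

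Members lay around start sites rather than on them. A TSS fell inside 89 of the 475 members (18.7%), 124 of the 689 WT-only promoters and 73.1% of promoters open in all 4 libraries. The summit lay within 100 bp of the nearest TSS for 14.5% of the members, 17.6% of WT-only and 53.0% of the always open promoters, and over 500 bp away for 45.1%, 44.7% and 16.9%. Members spread to both sides, with 51.4% of summits upstream. By annotation the summit fell in an intron for 45.7%, between genes for 26.3%, in a non-coding exon for 11.4%, in a UTR for 10.5% and in coding sequence for 6.11%. In the share holding a TSS and in the distance of the summit from it, members and WT-only promoters were close to each other and both differed from always open promoters. Summits between genes made up 19.9% in WT-only and 35.3% in always open promoters, on either side of the members.

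**Figure D3:**
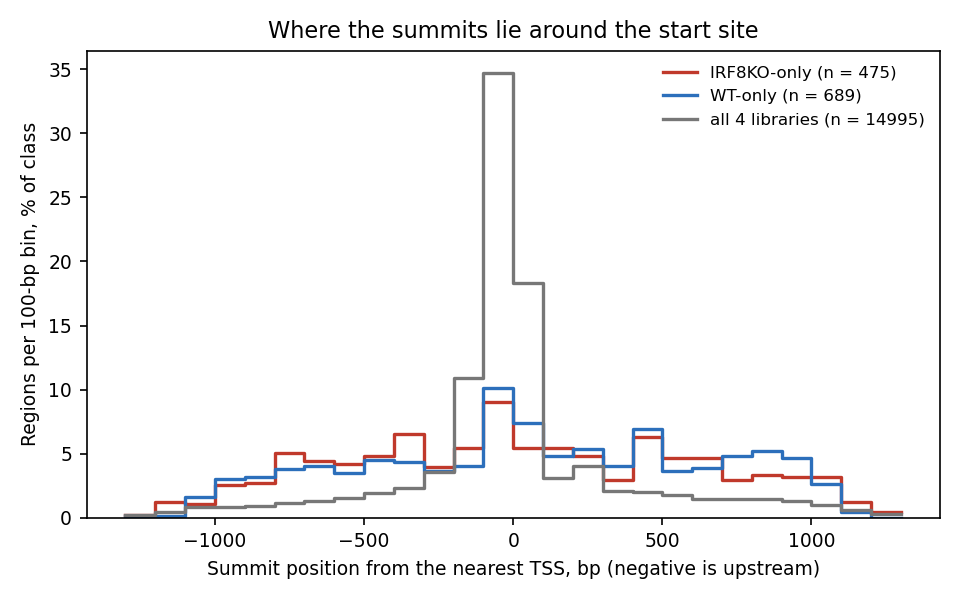
Distance of the summit from the nearest TSS in bp (x axis, negative upstream) against the share of each class per 100-bp bin (y axis), for members (red), WT-only promoters (blue) and promoters open in all 4 libraries (grey). The grey line peaks at the start, where 53.0% of its summits lie within 100 bp, while the red and blue lines are nearly flat.

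Members, like WT-only promoters, were less GC-rich than always open promoters. In the 201 bp around the summit the median GC content was 50.7% for members, 51.2% for WT-only and 62.2% for always open promoters. A window was called CpG-rich with at least 50% GC and an observed to expected CpG ratio of at least 0.6. This held for 18.9% of members (95% Wilson interval 15.7 to 22.7), 18.7% of WT-only and 66.1% of always open promoters. Without IRF8KO replicate 2 the share among members was 29.5%. Among the 189 members with no WT row within 500 bp it held for 11.1%, and among the other 286 for 24.1%. The motif GGGCGG of SP and KLF factors, a mark of CpG islands, was present in 13.5% of members, 17.3% of WT-only and 51.6% of always open promoters. CCAATCA, the NF-Y motif of many start sites, was present in 2.11%, 2.76% and 8.29%.

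Members and WT-only promoters, close in distance to the TSS and in base composition, differed in their motifs. All motifs were searched on both strands within 100 bp of the summit, by exact letters. The AP-1 motif TGACTCA was present in 52 members (10.9%, 95% Wilson interval 8.45 to 14.1), in 2.61% of WT-only promoters (1.66 to 4.09) and in 3.35% of always open promoters (3.08 to 3.66). The interval of the members lay above both others. Without IRF8KO replicate 2, when 909 regions met the criteria, the share among them was 6.60%, below that interval. It was also below it without WT replicate 1 (7.60% of 816 regions) and without IRF8KO replicate 1 (7.955% of 1320). Without WT replicate 2 it was 10.4%, inside the interval. The CEBP motif TTGCNNAA was present in 64 members (13.5%, interval 10.7 to 16.8), 7.98% of WT-only (6.18 to 10.2) and 6.27% of always open promoters. The RUNX motif TGTGGTT was present in 30 members (6.32%, interval 4.46 to 8.87), 3.92% of WT-only (2.71 to 5.64) and 2.79% of always open promoters. For RUNX the intervals of members and WT-only promoters overlapped.

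The ETS-IRF composite element went the other way. It was present in 4 members (0.842%, interval 0.328 to 2.15), in 98 of the 689 WT-only promoters (14.2%, interval 11.8 to 17.0) and in 2.39% of always open promoters. The related ISRE, which shares the letters GAAA with it so that 1 stretch can match both, was present in 15 members (3.16%, interval 1.92 to 5.14), 6.39% of WT-only (4.79 to 8.46) and 2.14% of always open promoters. The PU.1 motif GAGGAAGT, which shares GGAA with the ETS-IRF element, was present in 4.63% of members, 5.52% of WT-only and 4.97% of always open promoters. The NF-kB motif was present in 28 members (5.89%, interval 4.11 to 8.39), 1.597% of WT-only (0.894 to 2.84) and 3.72% of always open promoters. TATAAAA, the TATA box, was present in 4.21% of members, 2.32% of WT-only and 1.11% of always open promoters. A motif match is a description of the letters and not evidence that a factor was bound.

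**Figure D4:**
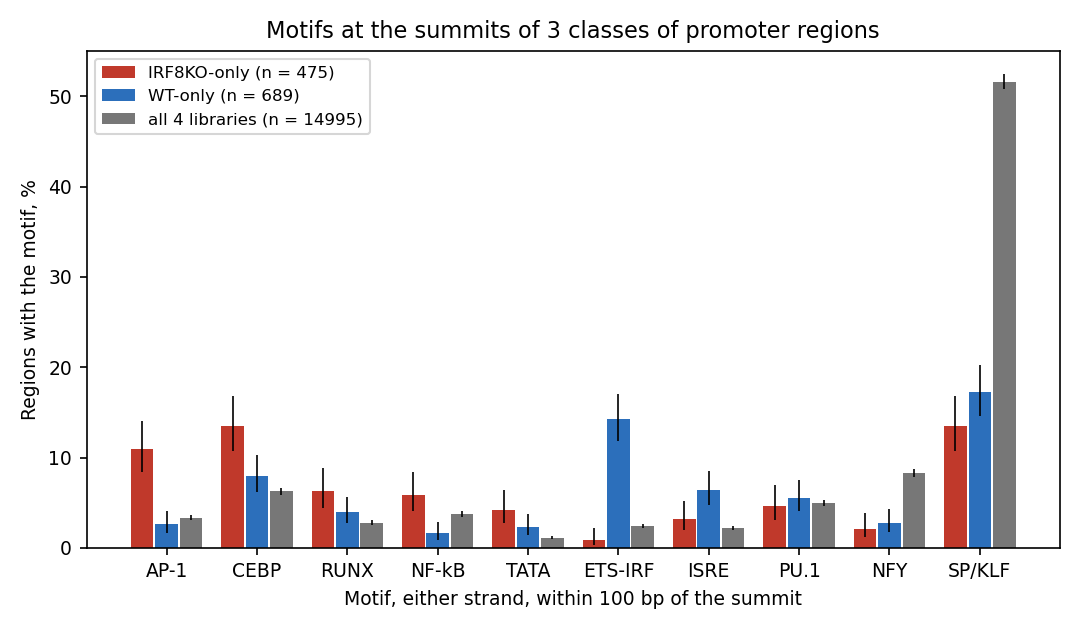
Share of regions with each motif within 100 bp of the summit (y axis, %) for members (red), WT-only promoters (blue) and promoters open in all 4 libraries (grey), with bars showing 95% Wilson intervals. AP-1 is highest in members, at 10.9% against 2.61% in WT-only (6.60% to 10.4% in sets built with 1 library left out). ETS-IRF is highest in WT-only promoters (14.2% against 0.842%).

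The contrast in ETS-IRF and AP-1 shares was present both with and without a row of the other genotype nearby. With such a row within 500 bp, AP-1 was present in 9.09% of such members and 2.04% of such WT-only promoters, and ETS-IRF in 1.40% and 10.7%. Among the 189 members with no WT row within 500 bp, AP-1 was present in 13.8% (interval 9.56 to 19.4), CEBP in 15.3% and RUNX in 9.52%. The ETS-IRF element was present in none of the 189, where the upper Wilson bound is 1.99%. The converse WT-only set, 297 promoters with no IRF8KO row within 500 bp, held AP-1 in 3.37%, CEBP in 11.8%, RUNX in 4.04% and ETS-IRF in 18.9% (interval 14.8 to 23.7). CEBP intervals of those sets overlapped (10.9 to 21.2 and 8.60 to 16.0). All 4 members with the ETS-IRF element, those at Il10 and Lilrb4a among them, had a WT row within 500 bp. Lilrb4a, an inhibitory immunoglobulin-like receptor, stood at 0.343 and 0.272 beside WT rows of 0.234 and 0.286.

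**Figure D5:**
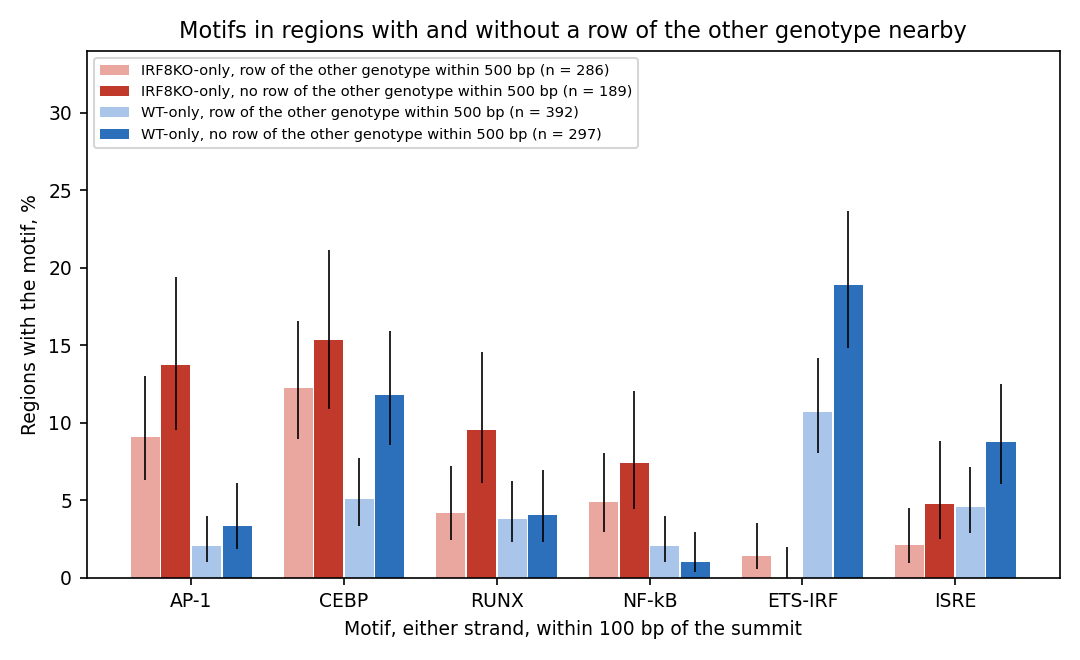
Share of regions with 6 motifs (y axis, %) in members and WT-only promoters, each split by whether a row of the other genotype lay within 500 bp, with 95% Wilson intervals. ETS-IRF is absent from the 189 members with no WT row nearby and present in 18.9% of the 297 corresponding WT-only promoters, and AP-1 runs in the opposite direction (13.8% against 3.37%).

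AP-1 members were found at all heights and at both gene classes. Of the 104 members with a height of at least 0.5 in both libraries 15 held the motif (14.4%), of the 94 at lncRNA genes 18 (19.1%) and of the 381 at protein-coding genes 34 (8.92%). Only 5 members held AP-1 and CEBP motifs together. At least 1 of AP-1, CEBP and RUNX was present in 27.8% of members, 13.4% of WT-only and 11.8% of always open promoters. Most members thus held none of the 3.

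Most members had no IRF8KO-only region away from promoters nearby, but the share that did was higher than in the other classes. Other promoter regions nearby were not counted here. A region away from promoters that was open only in IRF8KO by the same criteria lay within 50 kb of the summit for 147 members (30.9%, interval 27.0 to 35.2), against 19.0% of WT-only and 20.8% of always open promoters. A region away from promoters open only in WT lay within 50 kb of 35.2% of members, 40.5% of WT-only and 33.9% of always open promoters. The interval counts each member once, although members at 1 gene share their surroundings and are not independent.

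Markers of other cells give the context of the sort. All 11 microglia markers had a promoter at the threshold in both WT libraries and 10 of 11 in both IRF8KO libraries. Their summed promoter height was 33.6 and 25.9 in WT and 13.7 and 22.1 in IRF8KO, and Sall1, a transcription factor of microglia, stood at 2.17 and 2.04 in WT against no row and 0.151 in IRF8KO. Promoter height summed over the 6 border macrophage markers was 1.21 and 1.06 in WT and 2.56 and 4.05 in IRF8KO. This came from Pf4 (0.447 and 0.327 in WT, 1.29 and 1.89 in IRF8KO), Mrc1 (0.341 and 0.286, against 0.571 and 1.13) and Ms4a7 (0.128 in WT replicate 1 with no row in WT replicate 2, against 0.558 and 0.695), while Lyve1 (0.170 and 0.143 in WT, no row and 0.151 in IRF8KO) and F13a1 (0.128 and 0.307, against 0.140 and 0.181) were not higher in IRF8KO than in both WT libraries and Cd163 had no row in any library. Ms4a7, a membrane protein of border macrophages, is itself the gene of a member, at 0.292 and 0.498. The part of border macrophages in the members was not tested, and fewer or more cells of a type cannot be told apart from a change within cells.

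Among markers of blood cells the lymphocyte sum was higher in both IRF8KO libraries than in both WT libraries, and the monocyte sum was lower. Over the 6 monocyte markers the summed height was 2.45 and 2.15 in WT and 1.04 and 1.92 in IRF8KO, and Ccr2 and Plac8 had no row in any library. Over the 8 neutrophil markers it was 0.405 and 0.286 in WT and 0.381 and 0.423 in IRF8KO, with no row for S100a9, Ly6g, Ngp and Ltf in any library. Over the 7 lymphocyte markers it was 1.45 and 1.47 in WT and 3.58 and 3.44 in IRF8KO, nearly all from Cd3d (0.873 and 1.08 in WT, 3.44 and 3.44 in IRF8KO), while Cd3e and Cd79a had no row in any library. Endothelial markers summed to 8.12 and 6.79 in WT, against 1.81 and 2.69 in IRF8KO, with Cdh5 at 5.86 and 4.81 against 0.647 and 0.936. Oligodendrocyte markers summed to 2.64 and 2.35 in WT against 0.761 and 1.54 in IRF8KO, and neuron markers to 1.02 and 1.74 against 0.876 and 0.861. Astrocyte markers summed to 1.77 and 1.31 in the WT libraries, and to 1.19 and 2.16 in those of IRF8KO. Within that list Aldh1l1 was higher in IRF8KO (0.405 and 0.205 in WT, 0.850 and 1.52 in IRF8KO), while Gfap (0.426 and 0.327, against 0.127 and 0.136) and Slc1a3 (0.682 and 0.777, against 0.216 and 0.393) were lower.

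The threshold cut through a continuous range of heights. Several members tied at the lowest height of 0.254 in IRF8KO replicate 1. Of these, the lowest in replicate 2 were those at Gm3513, Scimp and Trim12c. Gm3513, a lncRNA gene, stood at 0.254 and 0.272. Scimp, an adaptor of Toll-like receptor signalling, and Trim12c, a tripartite motif protein, both stood at 0.254 and 0.257. Scimp lay beside WT rows of 1.09 and 0.777 and Trim12c beside WT rows of 6.30 and 5.07. Just outside, with no WT row either, were Tspan9, a tetraspanin, at 0.254 and 0.242, Gm11541 at 0.330 and 0.242, and Ypel2 at 0.292 and 0.242. In IRF8KO replicate 2 the step from 0.242 to 0.257 is that of 1 overlapping extension. The widest members were those at Kdelc2, Colec12 (699 bp) and Cxcl14, against a median of 203 bp over all members, 176 bp for WT-only and 594 bp for always open promoters.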

How the data were processed

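ATAC-seq peak lists of 4 libraries were used, with 46948938 to 78793572 tags per library. Peaks were called by the authors, 1 library at a time (per the file headers), with MACS2 2.1.1.20160309 (version also in the submitters' processing notes, which name Bowtie2, deepTools, bcl2fastq and the build mm10) at a p cutoff of 0.01, with cut sites shifted by -37 bp and extended to 73 bp, and without a control. Deposited values were the pileup, a signal without depth scaling, the fold enrichment, a ratio to local background, and p and q as −log10 values. The headers call q not calculated, but its deposited column holds values. Rows were reduced to distinct peaks, heights expressed per 1000000 tags, and regions merged with Python 3.11.15, pandas 2.3.3 and pysam 0.24.0. TSSs (65925) came from GENCODE M21 on GRCm38. The height a WT peak would have needed was computed from the Poisson background that pileup and fold enrichment imply in the IRF8KO libraries, scaled by tags. Region building and motif search were tested on simulated data. Results come from selected regions and 2 libraries per group, so no test was run and shares carry 95% Wilson intervals. Members, gene lists and motifs were chosen with earlier results of these data known. Genes were named by 5 rules: the 20 highest by the lower library, every member in 1 of the 20 gene lists, members at transcription factor, receptor, ligand or secreted genes of certain role, 3 either side of the threshold, and the 3 widest. Sequences shown, the split at 500 bp and role groups outside the lists were chosen after values were seen. Of the 20 highest members 1 is not reported here. Chromosome X was not part of the selection.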

Additional observations from a re-analysis of the deposited data

Results flagged for a closer look

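Chromosome X lies outside the selection, and it too held regions open only in IRF8KO. By the same criteria 9 of its 708 promoter regions (1.27%) were open in both IRF8KO libraries with no WT row, and 15 (2.12%) were open only in WT. The highest was at Mid1, a ubiquitin ligase of microtubules, with 0.850 in IRF8KO replicate 1 and 1.07 in replicate 2. Il2rg, the common gamma chain of interleukin receptors, reached 0.419 and 0.740. At Tlr8, a receptor for single-stranded RNA, a region reached 0.305 and 0.453 and another 0.279 and 0.664. This was noted because no result above used chromosome X.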

How the results depend on the processing

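No paired analysis was possible because the results come from no test. Against 475 members, a median lower height of 0.355 and shares of 10.9% with AP-1, 18.9% CpG-rich and 76.0% whose gene had a promoter open in all 4 libraries, a height of at least 0.5 gave 104 members, 0.635, 14.4%, 15.4% and 70.2%. Requiring no WT row within 500 bp gave 189 members, 11.1% CpG-rich and a share of 51.3% for the other promoter. A TSS within 500 bp gave 302, 23.5% and 69.5%, and a TSS inside the region gave 89, 14.6% and 31.5%. The share with another open promoter was 82.0% with protein-coding TSSs alone, 70.5% with 1 TSS per gene (CpG-rich 23.0%), 65.8% where a peak had to cover at least 50% of the region and 71.7% with peaks of −log10 q of 2 or more alone (CpG-rich 15.4%). AP-1 was present in 7.79% within 50 bp of the summit. Leaving out 1 library gave 652 to 1320 members, AP-1 in 6.60% to 10.4%, CpG-rich in 20.9% to 29.5% and another open promoter in 78.2% to 85.04%. All other alternatives, a height of at least 0.2 (678 members) and absence as no WT row with −log10 q of 2 or more (709 members) among them, kept counts within 1.5 times, the median height within the SD between the medians of the IRF8KO libraries and shares within the Wilson interval. The cause of these moves was not tested, apart from stricter criteria taking fewer regions. Of the 46 members that were among the 20 highest or in the gene lists, the only ones followed in this way, 5 were present under all 15 alternatives, those at Hcar2, Colec12, Cxcl14, Clec4e and Nlrc4.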

Other observations

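Several genes that act on NF-kB signalling had members, which was noticed after the gene names were seen and carries no test. Ikbke, a kinase of the IKK family, reached 0.939 in IRF8KO replicate 1 and 0.846 in replicate 2, 33 bp upstream of an internal start, with no WT row within 500 bp. Tnip1, which binds the inhibitor A20, had 2 members with no WT row within 500 bp, at 0.432 and 0.378 and at 0.343 and 0.423, and both held the NF-kB motif. Tnip3, a related protein whose gene had no WT row at any start, reached 0.330 and 0.332 and also held it. Tnfaip3, which encodes A20, stood at 0.355 and 0.393 beside WT rows of 5.15 and 3.89. Nfkb1 stood at 0.343 and 0.589, with a row of 0.660 nearby in WT replicate 1. Replicate 1 was the higher at Ikbke and at 1 of the Tnip1 members, unlike at most members.

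The lists of lipid metabolism and lysosome genes had members at Apoc1, Ctsc and Scarb2 besides Apoc4. Apoc1, an apolipoprotein of lipid-laden macrophages, had 2 members at 0.406 and 0.725 and at 0.317 and 0.393, with no WT row within 500 bp. Ctsc, a lysosomal protease that activates other proteases, stood at 0.546 and 0.544 beside WT rows of 3.32 and 2.37. Scarb2, a lysosomal membrane receptor, stood at 0.482 and 0.574 beside WT rows of 5.09 and 1.94, and at its lower height it would not have passed in both WT libraries. Hmox1, which degrades heme, stood at 0.393 and 0.544 beside WT rows of 4.24 and 3.68.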
